A study of Mus musculus with 12 samples.

Results

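The subject here is a group of 9 mouse genes of Wnt signalling, chosen by symbol: the secreted antagonists Wif1, Dkk3, Sfrp1, Sfrp2 and Frzb, the target genes Ccn4 (also written Wisp1) and Axin2, and the transcription factor genes Lef1 and Tcf7. The array annotation lists 15 probes for 8 of the 9 genes, and Tcf7 was not analysed here. Of these 8 genes, 6 passed the detection filter and are among the 11754 genes tested. RNA was measured on 12 arrays of mouse tissue, from normal muscle (n = 2), normal bone marrow (n = 2), leiomyosarcoma, a soft-tissue cancer with the name of a smooth muscle tumour (n = 4), and osteosarcoma, a malignant tumour of bone (n = 4). All 4 groups, the normal tissues included, carry the same label p53 flow/flox (spelled so), a floxed allele of the p53 tumour suppressor, and come from untreated mice followed until tumours or limb paralysis appeared. The labels name no recombinase, no age and no promoter that drives a deletion, so whether p53 was lost in a given sample, normal tissue included, is not stated. Separate animals are not stated for the samples, and the code in the titles of muscle 1 and bone marrow 2 is the same. The p-values therefore reflect sample-to-sample spread only, part of which may be technical.

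Wnt proteins are secreted signals that bind Frizzled receptors together with a co-receptor of the Lrp family. In the canonical route this stops the breakdown of beta-catenin, which then enters the nucleus and switches on target genes with Lef1, Tcf7 and related factors. Secreted antagonists hold the signal back outside the cell: Wif1 and the Sfrp proteins, with Frzb among them, bind Wnt ligands, while most Dickkopf proteins bind the co-receptor. Dkk3 is the divergent member of the Dickkopf family, and its action on Wnt signalling varies between settings. In bone the pathway is known for driving osteoblast formation.

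The 250 bases before the annotated start are shown for the antagonists Wif1 and Sfrp2 and for the feedback target Axin2. They were chosen because the first pair was called higher in osteosarcoma than in both normal tissues while Axin2 was not. For Sfrp2 these calls did not hold under every alternative given below. Sequences are from RefSeq, build GRCm38.p6, 5′ to 3′ on the gene's strand (+ for all 3), and capitals mark each CpG, the dinucleotide at which mammalian DNA is methylated. The windows lie at chr10:121033754-121034003 (Wif1), chr3:83766071-83766320 (Sfrp2) and chr11:108920099-108920348 (Axin2).
Wif1: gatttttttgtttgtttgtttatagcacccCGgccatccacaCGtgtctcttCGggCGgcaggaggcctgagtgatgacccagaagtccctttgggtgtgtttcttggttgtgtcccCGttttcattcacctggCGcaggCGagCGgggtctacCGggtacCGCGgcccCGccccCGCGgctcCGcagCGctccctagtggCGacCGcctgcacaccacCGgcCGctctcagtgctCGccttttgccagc
Sfrp2: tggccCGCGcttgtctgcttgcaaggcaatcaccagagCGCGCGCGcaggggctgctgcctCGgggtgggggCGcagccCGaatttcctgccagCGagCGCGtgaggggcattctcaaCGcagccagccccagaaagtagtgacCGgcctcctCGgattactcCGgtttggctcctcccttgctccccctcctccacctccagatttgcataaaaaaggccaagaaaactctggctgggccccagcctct
Axin2: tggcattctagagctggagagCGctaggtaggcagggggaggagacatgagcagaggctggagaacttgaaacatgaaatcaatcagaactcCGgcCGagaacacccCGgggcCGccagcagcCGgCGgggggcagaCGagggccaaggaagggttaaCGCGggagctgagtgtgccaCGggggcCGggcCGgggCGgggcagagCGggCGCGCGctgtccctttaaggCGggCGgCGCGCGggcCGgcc

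These windows hold 21 CpGs in Wif1, 16 in Sfrp2 and 24 in Axin2, against a median of 10 (quartiles 3 and 19) over 21263 promoters of protein-coding genes. The promoter table matched 6 of the 9 genes with 10 promoters, whose median was 15.5 CpGs. The letters CTTTGAT and CTTTGAA, forms of the TCF and LEF site, were searched on both strands and occur in none of the 10, against 7.48% of all 32851 promoters of this length. The RUNX letters TGTGGT occur in none of the 10 either, against 14.0% of all. A missing match says only that these letters are not in this window.

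Between 14169 and 18100 of 45281 probes were detected per array (31.3% to 40.0%), where detected means a deposited detection p under 0.05. Levels below are log2 of normalised signal, and the lowest detected signal lay between 5.11 and 5.62 on that scale. The background constant, which the authors had subtracted, was 80.8 to 84.2 on 6 arrays (both normal tissues, leiomyosarcomas 1 and 2) and 99.3 to 110.1 on the other 6 (leiomyosarcomas 3 and 4, all osteosarcomas). For the 6 tested genes, values with this level as a block are given where they end a call. No osteosarcoma shares a level with a normal tissue, so the effect of the level is estimated from the 4 leiomyosarcomas alone. For osteosarcoma against a normal tissue the block cannot separate tissue from level unless that effect is the same in all tissues. Each marker gene was read from its probe of the highest mean alone, chosen before the detection filter, so another probe may differ. Against their labels, both muscle samples held all 10 skeletal muscle markers and both bone marrows all 10 neutrophil markers, and the osteosarcomas held 6 to 8 of 8 osteoblast markers. The leiomyosarcomas held 4 to 6 of 10 smooth muscle markers, as did the osteosarcomas, against 5 to 6 in muscle and 2 in bone marrow. Of the 10, Myh11, Cnn1, Lmod1 and Synpo2 were detected in no leiomyosarcoma, and Lmod1 in no sample of any tissue. Acta2, Tagln, Smtn, Myocd, Actg2 and Cald1 were each detected in at least 1 leiomyosarcoma. Bulk RNA cannot tell fewer cells of a type from less RNA per cell.

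**Figure D1:**
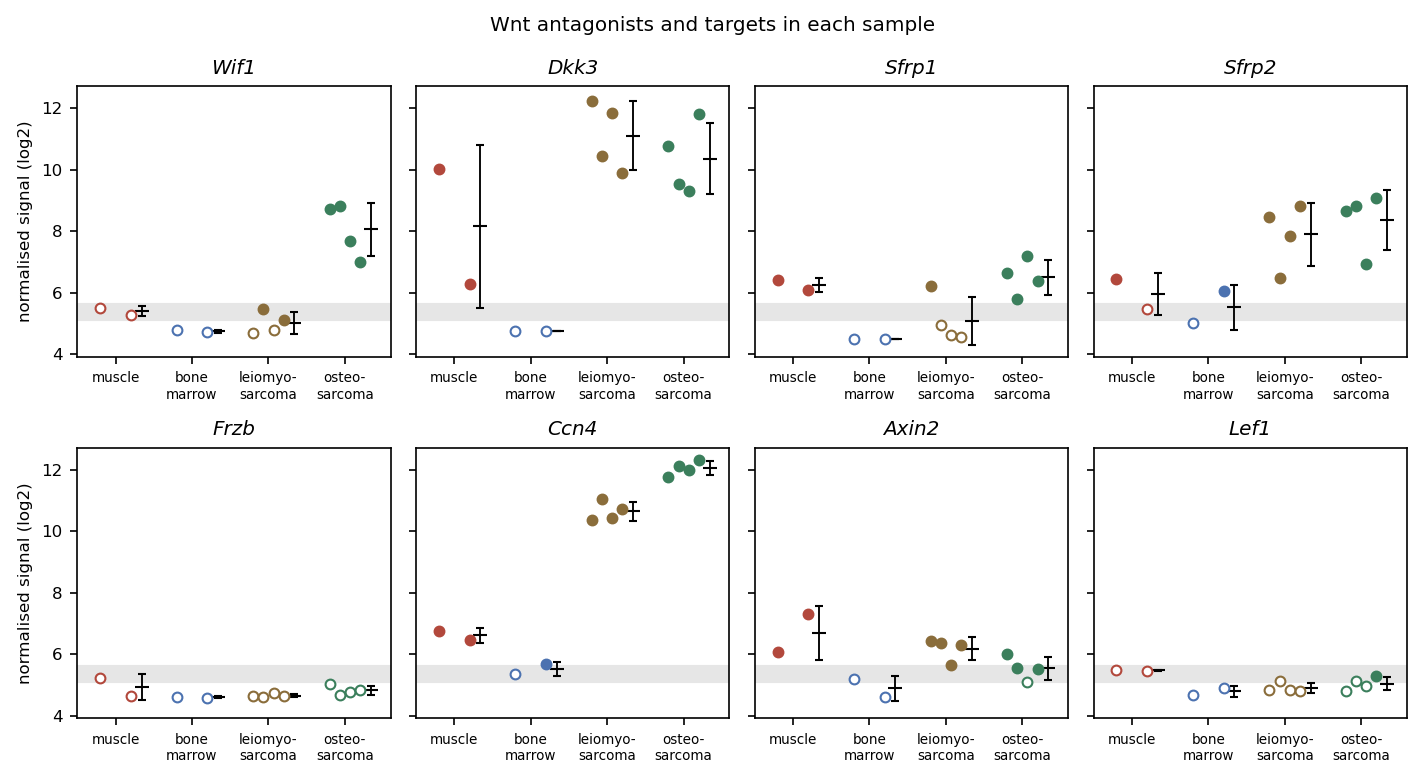
Normalised signal (log2, vertical axis) of the probe used for 8 genes in each of the 12 samples, by tissue. Filled points were detected and open points were not, the grey band spans the lowest detected signal of the arrays, and bars give mean and SD. Wif1 stands above the band in the 4 osteosarcomas, Ccn4 stands far above it in all 8 tumours, and Frzb is undetected throughout.

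Wif1 binds Wnt proteins outside the cell and keeps them from their receptors. It was well detected in osteosarcoma and near background everywhere else. The background-subtracted signals were 514, 571, 199 and 120 in osteosarcomas 1 to 4, against 0.752, 28.4, 7.23 and 23.5 in the leiomyosarcomas. Muscle gave 18.5 and 13.7 and bone marrow 3.49 and 0.818, none of them detected. All 4 osteosarcomas lie above all 8 other samples, and among the rest only leiomyosarcomas 2 and 4 were detected. On the log2 scale the mean was 8.06 ± 0.87 (SD, n = 4) in osteosarcoma and 5.02 ± 0.36 (n = 4) in leiomyosarcoma, a difference of 3.04 ± 0.36 (SE; limma adjusted p = 0.000411). Osteosarcoma was at least 6.01-fold higher than bone marrow (adjusted p = 0.000111) and at least 5.47-fold higher than muscle (adjusted p = 0.000544), computed against the lowest detected signal or the undetected signal of the gene where that was higher. With the background level as a block all 3 calls stayed (adjusted p = 0.00387, 0.00644 and 0.0179), though osteosarcoma shares no level with bone marrow or muscle. Leiomyosarcoma did not differ from muscle by the test (−0.39, 95% interval −1.36 to 0.58, adjusted p = 0.504), nor from bone marrow (0.27, interval −0.70 to 1.24, adjusted p = 0.679).

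Dkk3 was detected in all 8 tumours and both muscle samples and was undetected in bone marrow. Signals were 4278, 1269, 5324 and 1286 in the leiomyosarcomas and 2092, 950, 627 and 3413 in the osteosarcomas. Bone marrow gave 2.71 and 2.19. The muscle samples stood far apart, at 661 in muscle 1 and 32.2 in muscle 2, so muscle 1 lies among the tumours and muscle 2 well under them. The log2 means were 11.11 ± 1.12 in leiomyosarcoma, 10.36 ± 1.16 in osteosarcoma, 8.16 ± 2.66 in muscle and 4.76 ± 0.00 in bone marrow. Dkk3 was at least 49.8-fold higher in leiomyosarcoma (adjusted p = 0.00038) and at least 29.7-fold higher in osteosarcoma (adjusted p = 0.000903) than in bone marrow.

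The comparisons of Dkk3 with muscle rest on which muscle sample is used. Leiomyosarcoma was higher than muscle by 2.95 ± 0.99 (adjusted p = 0.029), but by 4.84 (adjusted p = 0.00344) without muscle 1 and by 1.07 (adjusted p = 0.428) without muscle 2. The call also ended without leiomyosarcoma 1 (2.58) or 3 (2.71) and with the background level as a block (3.19, adjusted p = 0.0569). Osteosarcoma differed from muscle by 2.20 ± 0.99 (adjusted p = 0.0921), which was 4.09 and called without muscle 1 and 0.32 without muscle 2 (adjusted p = 0.832). Bone marrow was at least 6.43-fold lower than muscle (adjusted p = 0.0293), and its difference of −3.40 was −1.52 without muscle 1 (adjusted p = 0.306) and −5.29 without muscle 2. With the arrays of low background alone, which hold both normal tissues whole, its adjusted p was 0.056. This call of bone marrow against muscle held in 13 of 22 alternatives. The fibroblast marker list also differed between the muscle samples, with a summed signal of 13854 in muscle 1 and 6378 in muscle 2; its part in the Dkk3 values was not tested. The tumours did not differ from each other by the test (−0.75, interval −2.52 to 1.02, adjusted p = 0.621).

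Sfrp1, a secreted Frizzled-related protein that binds Wnt, was detected in all 4 osteosarcomas, both muscle samples and 1 of 4 leiomyosarcomas. Signals were 112, 49.1, 138 and 71.1 in the osteosarcomas and 38.1 and 27.95 in muscle. In leiomyosarcoma 1 the signal was 60.5, while leiomyosarcomas 2 to 4, at 11.4, −2.74 and −6.05, and both bone marrows, at −9.35 and −9.61, were undetected. Leiomyosarcoma 1 thus lies within the range of the osteosarcomas and the other 3 leiomyosarcomas lie below it. The log2 mean was 6.51 ± 0.58 in osteosarcoma, 6.26 ± 0.23 in muscle, 5.10 ± 0.78 in leiomyosarcoma and 4.50 ± 0.00 in bone marrow. Sfrp1 was at least 2.05-fold higher in osteosarcoma than in bone marrow (adjusted p = 0.0048). This call stayed with the background level as a block (adjusted p = 0.00575), though these tissues share no level. Bone marrow was at least 1.73-fold lower than muscle (adjusted p = 0.0167), which was not called when muscle 1 was left out (−1.60, adjusted p = 0.0836) or with the loss of either bone marrow (−1.76 in each case, adjusted p = 0.0682 and 0.0703).

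Osteosarcoma was higher than leiomyosarcoma in Sfrp1 by 1.41 ± 0.37 (adjusted p = 0.0312). This call held in 10 of 22 alternatives, over which the difference ranged from 0.67 to 1.91. It ended without each of leiomyosarcomas 2, 3 and 4 and osteosarcomas 1, 3 and 4, and without either bone marrow, with differences of 1.19 to 1.46. It also ended with the unsubtracted intensities (0.67) and with an offset of 50 (0.85), both under the fold required, with no detection filter (adjusted p = 0.0608) and with only these groups in the fit (adjusted p = 0.0636). The difference between leiomyosarcoma and muscle was −1.17 ± 0.46 (adjusted p = 0.0545), which was −1.55 and called without leiomyosarcoma 1 (adjusted p = 0.00453). That between osteosarcoma and muscle was 0.24 (interval −0.76 to 1.24, adjusted p = 0.698). Over 21 alternatives the osteosarcoma difference from muscle ranged from 0.02 to 1.25 and was never called. The osteosarcomas all lay above both muscle samples in subtracted signal, but the normalised values overlap.

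Sfrp2, another Frizzled-related protein, was higher in both tumours than in both normal tissues, with wide spread inside each tumour. Signals were 488, 580, 114 and 531 in osteosarcoma and 324, 72.8, 332 and 605 in leiomyosarcoma, against 39.0 and 16.7 in muscle and 9.93 and 30.8 in bone marrow. Leiomyosarcoma 2 and osteosarcoma 3 are the lowest tumours, and leiomyosarcoma 2 lies only just above muscle 1 on the log2 scale, at 6.47 against 6.46. The log2 means were 8.38 ± 0.98 in osteosarcoma, 7.90 ± 1.04 in leiomyosarcoma, 5.96 ± 0.70 in muscle and 5.53 ± 0.73 in bone marrow. The difference was 1.94 ± 0.70 for leiomyosarcoma against muscle (adjusted p = 0.0386) and 2.38 ± 0.70 against bone marrow (adjusted p = 0.019). Osteosarcoma exceeded bone marrow by 2.85 ± 0.70 (adjusted p = 0.00718) and muscle by 2.41 ± 0.70 (adjusted p = 0.0148). With the background level as a block all 4 calls ended, with adjusted p-values of 0.165, 0.0963, 0.237 and 0.331 in that order and differences of 1.94 and 1.97 against bone marrow. The comparison with muscle ended for leiomyosarcoma without any of muscle 1, muscle 2, leiomyosarcoma 1, 3 or 4 (1.45 to 2.43), and for osteosarcoma without muscle 2 (1.92). Those with bone marrow ended without bone marrow 1 (1.86 and 2.33). The tumours differed by 0.47 (interval −0.77 to 1.72, adjusted p = 0.661).

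Frzb, the Frizzled-related protein known from cartilage, was detected on 0 of 12 arrays. Its signals ran from −4.95 to 17.5, the highest in osteosarcoma 1, and the smallest detection p was 0.0876. No fold is given for it, and it did not enter the tests.

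Ccn4 is a secreted matricellular protein of the CCN family, first known as a gene induced by Wnt1, and it showed the clearest differences of the group. Signals were 4116, 5342, 3801 and 4885 in osteosarcoma and 1235, 1904, 2058 and 2262 in leiomyosarcoma. Muscle gave 50.4 and 36.8 and bone marrow 17.7 and 22.6, with bone marrow 1 undetected. The tissues do not overlap anywhere: every osteosarcoma is above every leiomyosarcoma, every leiomyosarcoma above muscle, and muscle above bone marrow. The log2 means in that order were 12.07 ± 0.23, 10.65 ± 0.31, 6.61 ± 0.23 and 5.53 ± 0.24. Osteosarcoma exceeded bone marrow by 6.54 ± 0.25 (adjusted p = 5.09e-09) and muscle by 5.45 ± 0.25 (adjusted p = 1.16e-07). Leiomyosarcoma exceeded muscle by 4.04 ± 0.25 (adjusted p = 7.55e-07) and bone marrow by 5.13 ± 0.25 (adjusted p = 3.65e-08). These 4 calls and the difference between the tumours, 1.42 ± 0.20 (adjusted p = 0.00118), held under every alternative run. Bone marrow was lower than muscle (−1.09 ± 0.28, adjusted p = 0.00776), but not past the test when muscle 1 was left out (−0.93, adjusted p = 0.0539) or bone marrow 1 (−0.92, adjusted p = 0.0657).

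Axin2, a scaffold of the beta-catenin destruction complex and the widely used feedback target of canonical Wnt signalling, was detected in muscle, in all 4 leiomyosarcomas and in 3 of 4 osteosarcomas, and was not called higher than muscle in either tumour. Signals were 29.1 and 75.1 in muscle, 71.8, 66.0, 51.9 and 90.7 in leiomyosarcoma and 63.2, 37.6, 17.2 and 30.9 in osteosarcoma. Bone marrow, at 13.9 and −3.68, and osteosarcoma 3 were undetected. Muscle 2 held the highest log2 level, 7.32, and muscle 1, at 6.06, lies within the leiomyosarcomas. The log2 means were 6.69 ± 0.89 in muscle, 6.19 ± 0.37 in leiomyosarcoma, 5.54 ± 0.37 in osteosarcoma and 4.90 ± 0.40 in bone marrow. Axin2 was lower in osteosarcoma than in muscle (−1.14 ± 0.37, adjusted p = 0.0267), but the call ended without muscle 2 (−0.52, adjusted p = 0.349), without osteosarcoma 3 (−0.99, adjusted p = 0.0608) and with the background level as a block (−0.72, adjusted p = 0.4). Bone marrow was at least 2.32-fold lower than muscle (adjusted p = 0.00482), a call lost without muscle 2 (−1.17, adjusted p = 0.0542) or bone marrow 2 (−1.51, adjusted p = 0.0504). Leiomyosarcoma was at least 1.64-fold higher than bone marrow (adjusted p = 0.018). This call held in 17 of 22 alternatives, over which the difference ranged from 0.58 to 1.58, and it ended without bone marrow 2 (1.00). Leiomyosarcoma against muscle gave −0.50 (interval −1.32 to 0.31, adjusted p = 0.293), which was −1.13 and called lower without muscle 1 (adjusted p = 0.0455) and 0.12 without muscle 2 (adjusted p = 0.838). The test called no difference between osteosarcoma and bone marrow (0.65, interval −0.17 to 1.47, adjusted p = 0.197) or the tumours (−0.64, interval −1.31 to 0.03, adjusted p = 0.207).

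Lef1, a DNA-binding partner of beta-catenin with a known part in lymphocyte development, was detected on 1 of 12 arrays, osteosarcoma 4, at a signal of 22.5 and a detection p of 0.0449. Its 4 probes ranged from −16.8 to 22.5 over all samples. Bone marrow, which held the highest summed T cell markers (3392 to 3396, with 6 to 7 of 9 detected), did not reach detection for Lef1. It did not enter the tests.

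**Figure D2:**
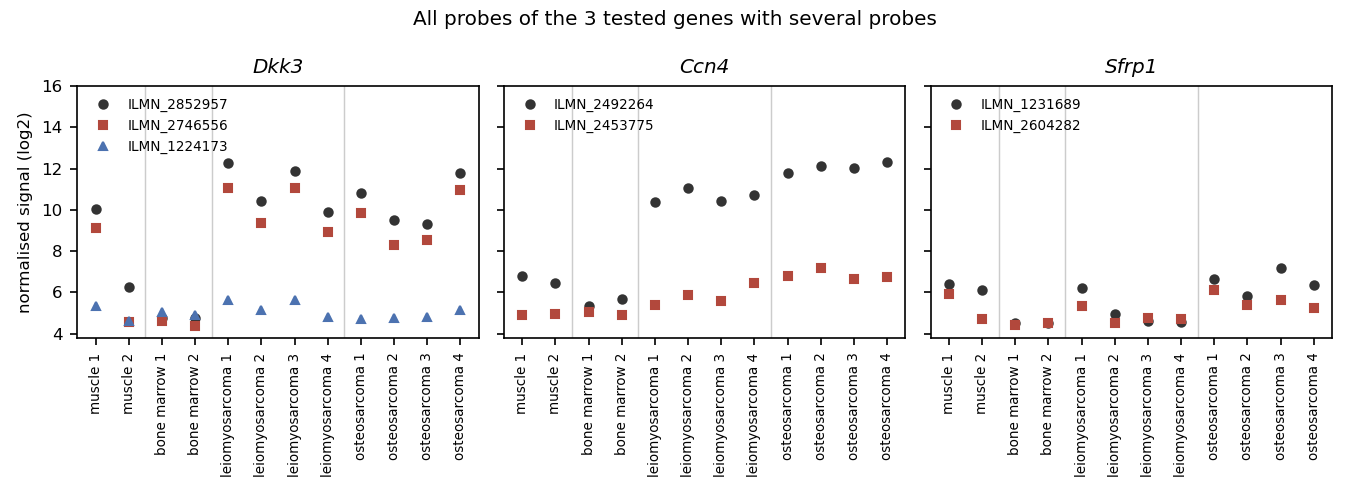
Normalised signal (log2, vertical axis) of each probe of Dkk3, Ccn4 and Sfrp1 in the 12 samples, named below, with vertical lines between tissues. The second probe of each gene follows the tissue order of the first, except that muscle and bone marrow are not separated by that of Ccn4, and the third Dkk3 probe stays near background, with tissue means of 4.86 to 5.30.

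The other probes bear on how well these values are measured. The second Dkk3 probe averaged 10.11 in leiomyosarcoma, 9.41 in osteosarcoma, 6.85 in muscle and 4.51 in bone marrow, and repeated the gap between the muscle samples. The second Ccn4 probe was far dimmer, at 6.85 in osteosarcoma, 5.82 in leiomyosarcoma, 4.94 in muscle and 4.99 in bone marrow. The second Sfrp1 probe averaged 5.59 in osteosarcoma, 5.32 in muscle, 4.84 in leiomyosarcoma and 4.47 in bone marrow. Levels of different probes are not comparable, so only the order of the tissues within a probe is read, and muscle and bone marrow are not ordered by the second Ccn4 probe.

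**Figure D3:**
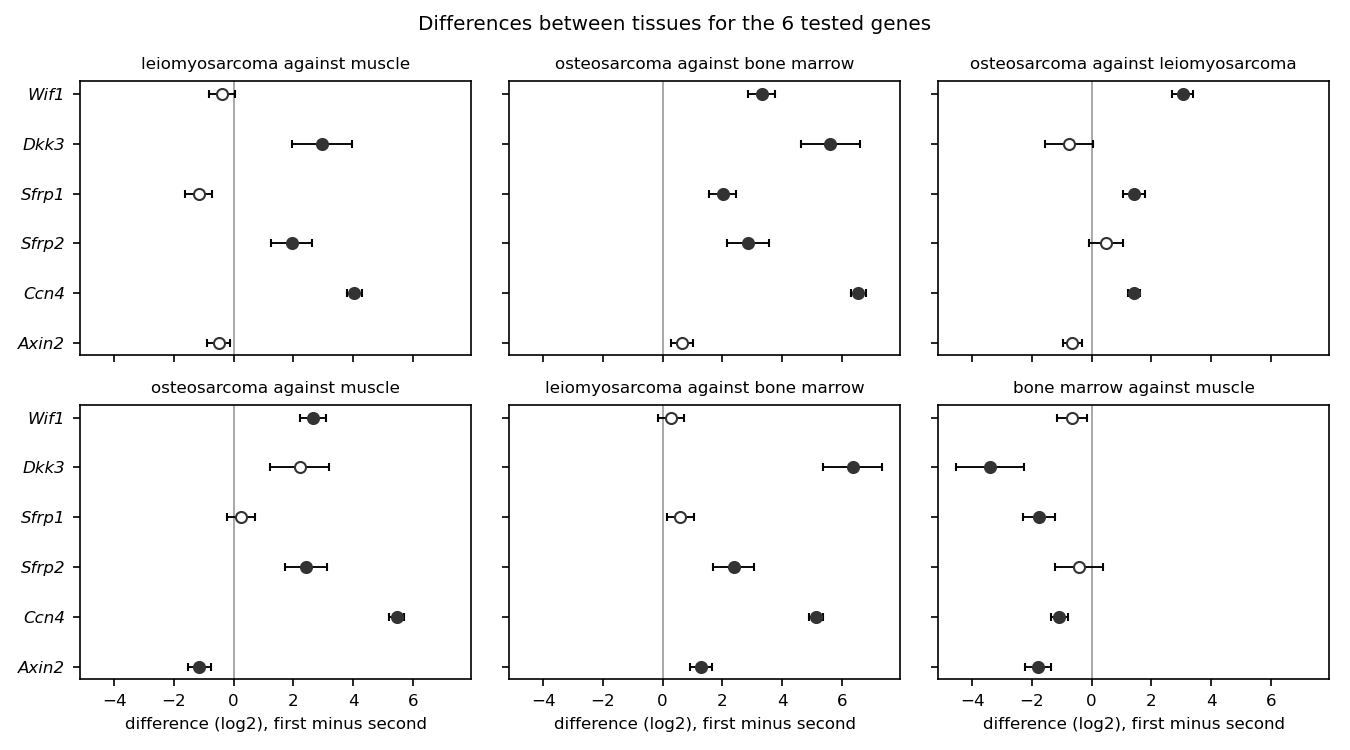
Difference between tissues (log2, first named minus second, horizontal axis) for the 6 tested genes in the 6 comparisons. Filled points passed the test, open points did not, and bars are the standard error of the fit. Ccn4 passed in all 6 comparisons, Wif1 in the 3 that involve osteosarcoma, and the bars of Dkk3 are the longest.

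Each comparison was set against the share of all 11754 genes called. Osteosarcoma against bone marrow called 5 of the 6 tested genes higher (Wif1, Dkk3, Ccn4, Sfrp1, Sfrp2), where 14.8% of all genes were called higher. Leiomyosarcoma against muscle called 3 higher (Dkk3, Ccn4, Sfrp2; 20.1% of all genes), leiomyosarcoma against bone marrow 4 higher (Dkk3, Ccn4, Sfrp2, Axin2; 15.2%) and osteosarcoma against muscle 3 higher (Wif1, Ccn4, Sfrp2; 18.5%) and 1 lower (Axin2; 14.5%). Between the tumours, 3 were higher in osteosarcoma (Wif1, Ccn4, Sfrp1), where 3.31% of all genes were called higher and 4.34% lower. Bone marrow against muscle called 4 lower (Dkk3, Ccn4, Sfrp1, Axin2; 19.7% of all genes, with 20.3% higher). With median scaling in place of quantile normalisation the split of all genes turned, from 2358 higher and 1778 lower to 1793 and 2406 in leiomyosarcoma against muscle, and from 2174 and 1710 to 1660 and 2388 in osteosarcoma against muscle. Sfrp1 was then called lower in leiomyosarcoma than in muscle (−1.48, adjusted p = 0.043). With 6 genes these counts describe the group only, since a gene that passed the detection filter through the tissue where it is high was bound to differ. The median difference of the 6 was 3.08 for osteosarcoma against bone marrow (2.72 with genes at their bound) against 0.03 over all genes, and 0.78 for leiomyosarcoma against muscle against 0.08. Ccn4 and Sfrp2 were called higher in all 4 comparisons of a tumour with a normal tissue, as were 457 genes in all (3.89%). The Sfrp2 calls all ended with the background level as a block, and that of leiomyosarcoma against muscle held in 11 of 22 alternatives.

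A further contrast was the osteosarcoma minus bone marrow difference less the leiomyosarcoma minus muscle difference. Bone marrow held 349812 to 360643 of summed neutrophil signal, against 799 to 1672 in osteosarcoma. Muscle held 332415 to 346533 of summed skeletal muscle signal, against 329 to 1385 in leiomyosarcoma. Whether either normal tissue is the origin of a tumour, and the part of cell makeup in this contrast, were not tested. The contrast was larger on the osteosarcoma side for Ccn4 (2.50 ± 0.35, adjusted p = 0.000134), where 19.5% of all genes were called in this direction. The fit also called it for Wif1 (3.70 ± 0.63, adjusted p = 0.000567) and Sfrp1 (3.17 ± 0.65, adjusted p = 0.00197). Wif1 was undetected in both normal tissues and Sfrp1 in bone marrow, so the size of these differences rests on signals not above background. For Dkk3 it was 2.65 (interval −0.41 to 5.72, adjusted p = 0.152), for Axin2 1.15 (adjusted p = 0.101) and for Sfrp2 0.91 (interval −1.24 to 3.06, adjusted p = 0.496). This contrast also holds the difference of bone marrow from muscle, −1.09 for Ccn4 and −1.76 for Sfrp1. Each was called, but each call held in 16 of 22 alternatives. Ccn4 was undetected in bone marrow 1, and its second probe gave no such difference (4.99 in bone marrow, 4.94 in muscle). The Dkk3 value was 4.54 and called without muscle 2 (adjusted p = 0.0152), and 0.77 without muscle 1 (adjusted p = 0.665). The Axin2 value was 1.78 and called without muscle 1 (adjusted p = 0.0172), and 0.53 without muscle 2 (adjusted p = 0.445).

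The 6 genes followed unlike patterns over the 12 samples. As a measure of likeness, each gene's log2 values were centred on their mean and the root mean square distance over the 12 samples was taken. The smallest distance in the group was between Sfrp1 and Axin2 (1.06), and the largest between Ccn4 and Axin2 (2.65). The distance is not scaled by spread, and Sfrp1 and Axin2 have the smallest spreads (SD 0.97 and 0.73). Their small distance does not mean a shared pattern: osteosarcoma minus leiomyosarcoma was 1.41 for Sfrp1 and −0.64 for Axin2. Nearest to Wif1 among all tested genes was Dlx3, a homeobox gene active in bone and skin, at 0.366, with log2 means of 8.13 ± 0.84 in osteosarcoma, 5.07 in leiomyosarcoma, 5.01 in muscle and 4.78 in bone marrow; A930017M01Rik (0.381) and Pard3b (0.409) followed. Nearest to Ccn4 was Bok, a relative of the Bcl2 family, at 0.461, with 10.28 ± 0.44, 9.29 ± 0.32, 5.18 and 4.53 in the same order, then Aldh1l2 (0.703) and Snhg18 (0.705).

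The other neighbours follow the same rule. Dkk3 had Nrep (0.676), Fstl1 (0.799) and Sema7a (0.827), and Nrep showed the same split of the muscle samples, with an SD of 2.82 in muscle. Sfrp2 had Nid2 (0.561), a basement membrane protein, Angpt2 (0.573) and Fam20a (0.621). Sfrp1 had Rom1 (0.435), Tha1 (0.473) and Ak3 (0.517), and Axin2 had Synj2 (0.236), Ttc37 (0.312) and Abcd3 (0.327). A small distance comes easily to a gene of little spread, and the spread over samples was 0.73 for Axin2 against 2.70 for Ccn4.

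**Figure D4:**
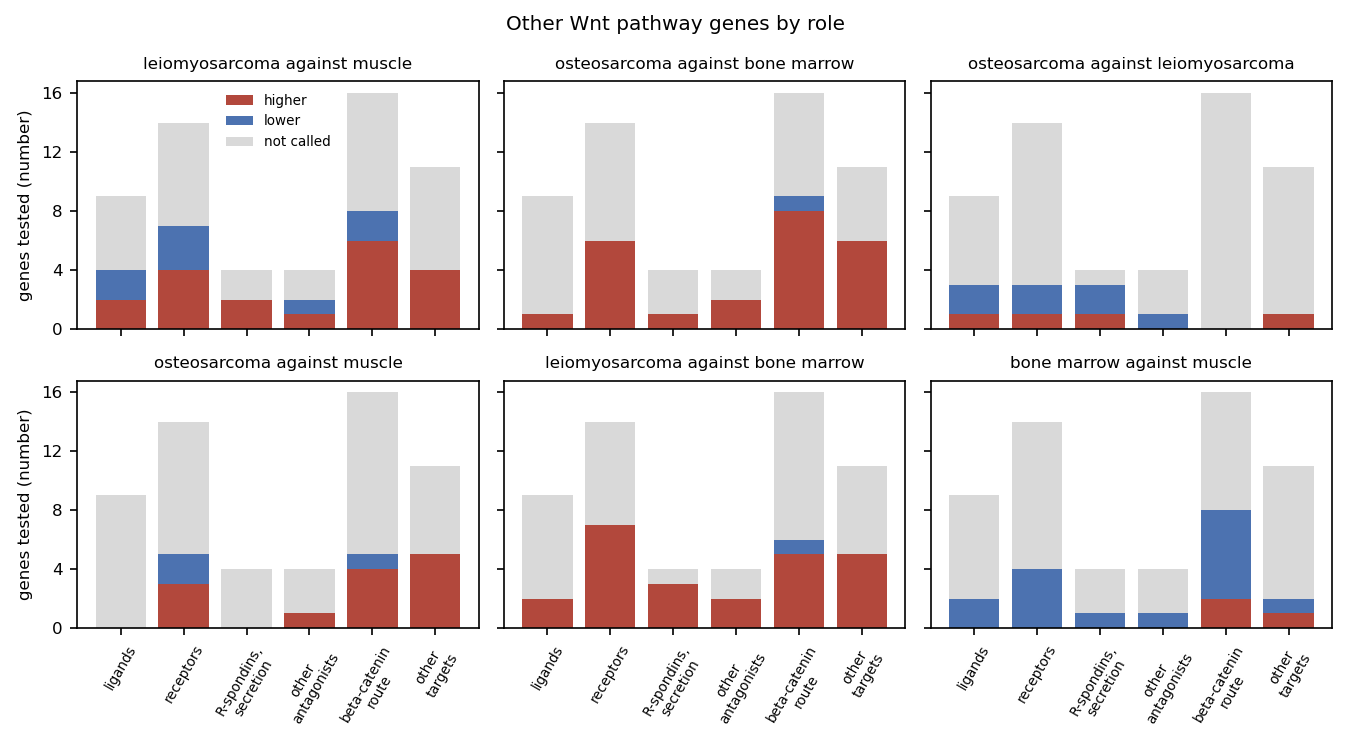
Number of tested genes (vertical axis) called higher, called lower and not called in each of 6 lists of other Wnt pathway genes, for the 6 comparisons. Of the 16 genes of the beta-catenin route, 8 were called higher and 1 lower in osteosarcoma than in bone marrow (14.8% and 13% of all genes).

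The rest of the pathway was read from 6 lists of 91 genes, of which 58 were tested; 9 of 19 Wnt ligands and 4 of 14 other antagonists were among them. Dkk1, Dkk2, Sfrp4 and Sost, antagonists known from bone, were not detected on the 2 arrays required. Of the 58, 24 were called higher and 1 lower in osteosarcoma against bone marrow (41.4% and 1.72%, against 14.8% and 13% of all genes), and the same counts held for leiomyosarcoma against bone marrow. Leiomyosarcoma against muscle gave 19 higher and 8 lower (32.8% and 13.8%, against 20.1% and 15.1% of all genes). Osteosarcoma against muscle gave 13 and 3 (22.4% and 5.17%, against 18.5% and 14.5%), bone marrow against muscle 3 and 15 (5.17% and 25.9%, against 20.3% and 19.7%), and osteosarcoma against leiomyosarcoma 4 and 7 (6.90% and 12.1%, against 3.31% and 4.34%). With the background level as a block, 14 of the 24 genes higher in osteosarcoma than in bone marrow stayed called, and 20 of the 24 in leiomyosarcoma. Osteosarcoma and bone marrow share no level, so the first count takes the effect of the level from the leiomyosarcomas. The median difference was 1.06 for osteosarcoma against bone marrow (0.79 with genes at their bound) against 0.03 over all genes, and 0.09 between the tumours.

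Among ligands, Wnt7b and Wnt5a were highest in leiomyosarcoma. Wnt7b averaged 9.76 ± 1.03 there, at least 17.8-fold above muscle (adjusted p = 0.000167), and 6.13 ± 1.20 in osteosarcoma, a difference between the tumours of −3.63 ± 0.58 (adjusted p = 0.00246). Wnt5a, a ligand best known for routes that do not use beta-catenin, averaged 9.31 ± 0.61 in leiomyosarcoma and 6.74 ± 1.31 in osteosarcoma (−2.58 ± 0.54, adjusted p = 0.0108). Wnt4 ran the other way: it was 7.67 ± 0.98 in osteosarcoma, 7.40 ± 0.62 in muscle and 5.02 ± 0.32 in leiomyosarcoma, and osteosarcoma exceeded leiomyosarcoma by 2.64 ± 0.41 (adjusted p = 0.00199). The ligand list gave 1 called higher and 2 lower between the tumours, out of 9 (3.31% and 4.34% of all genes).

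Among receptors, 7 of 14 were called higher in leiomyosarcoma and 6 of 14 in osteosarcoma against bone marrow (15.2% and 14.8% of all genes). Against muscle they went both ways. Leiomyosarcoma had 4 higher and 3 lower (20.1% and 15.1% of all genes), and osteosarcoma 3 higher and 2 lower (18.5% and 14.5%). Ror2, a receptor for Wnt5a, averaged 8.71 ± 0.40 in leiomyosarcoma and 6.97 ± 0.23 in osteosarcoma and was undetected in both normal tissues, so that leiomyosarcoma was at least 8.58-fold above muscle (adjusted p = 1.24e-06) and osteosarcoma at least 2.57-fold (adjusted p = 4.75e-05). Fzd5 was highest in osteosarcoma, at 9.92 ± 0.46 against 7.60 ± 0.77 in leiomyosarcoma (2.33 ± 0.36, adjusted p = 0.002). Fzd2 was lower in osteosarcoma than in leiomyosarcoma (−1.10 ± 0.21, adjusted p = 0.00737), a call lost without leiomyosarcoma 4. Ryk, another Wnt receptor, averaged 9.99 to 10.51 in muscle and both tumours and 5.96 ± 0.19 in bone marrow.

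Of the R-spondins and the genes for Wnt secretion, Porcn, which attaches the lipid that Wnt proteins need, was undetected in bone marrow. It averaged 8.71 ± 0.39 in osteosarcoma, 8.40 ± 0.41 in muscle and 7.67 ± 0.42 in leiomyosarcoma. Osteosarcoma was at least 9.43-fold above bone marrow (adjusted p = 3.17e-06), and muscle at least 7.60-fold (adjusted p = 1.55e-05). Porcn was not called between osteosarcoma and muscle. Wls, the carrier that brings Wnt proteins to the cell surface, was higher in leiomyosarcoma than in muscle by 2.20 ± 0.40 (adjusted p = 0.000905). Rspo4 was detected in the 4 leiomyosarcomas and in no other sample, at 6.35 ± 0.50. Of the other antagonists, Apcdd1, which binds Wnt and Lrp proteins at the membrane, was 8.47 ± 0.52 in leiomyosarcoma and 6.88 ± 0.92 in osteosarcoma and undetected in normal tissue. Leiomyosarcoma was at least 7.23-fold above muscle in Apcdd1 (adjusted p = 0.000115), and osteosarcoma lay below leiomyosarcoma (−1.59 ± 0.41, adjusted p = 0.0282), a call lost without any of leiomyosarcomas 3 and 4 and osteosarcomas 2 and 4. Kremen1, a receptor for Dickkopf proteins, was highest in muscle (8.71 ± 1.499).

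In the beta-catenin route, Ctnnb1, the gene of beta-catenin itself, averaged 12.75 ± 0.11 in osteosarcoma, 11.998 ± 0.20 in leiomyosarcoma, 10.90 ± 0.09 in muscle and 10.81 ± 0.03 in bone marrow. Osteosarcoma exceeded bone marrow in Ctnnb1 by 1.94 ± 0.19 (adjusted p = 8.81e-06). RNA level says nothing of the protein's stability, through which the pathway acts. Tcf7l1, a TCF factor that mostly represses targets, was 9.78 ± 0.77 in osteosarcoma and 9.44 ± 0.18 in leiomyosarcoma against 5.76 ± 0.06 in bone marrow (4.02 ± 0.43, adjusted p = 1.85e-05, and 3.68 ± 0.43, adjusted p = 4.03e-05). Dvl1, which carries the signal from the receptor, was lower in leiomyosarcoma than in muscle (−1.55 ± 0.22, adjusted p = 0.000131).

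Among the other targets, Ccnd1, the cyclin of early G1 and a target of many pathways, averaged 12.40 ± 0.52 in leiomyosarcoma and 11.98 ± 0.72 in osteosarcoma against 7.45 ± 0.31 in muscle and 6.99 ± 0.84 in bone marrow. Of the 11 tested targets, 6 were called higher in osteosarcoma and 5 in leiomyosarcoma against bone marrow (14.8% and 15.2% of all genes). Tnfrsf11b, the decoy receptor osteoprotegerin, was at least 11.3-fold higher in osteosarcoma than in bone marrow (adjusted p = 0.00435). Tnfrsf19 was the 1 target called between the tumours, where 3.31% of all genes were called higher and 4.34% lower. It averaged 8.93 ± 1.03 in osteosarcoma and 5.09 ± 0.67 in leiomyosarcoma (3.84 ± 0.49, adjusted p = 0.000594). Cd44 was 11.52 ± 0.16 in bone marrow, above muscle by 3.55 ± 0.48 (adjusted p = 8.86e-05), and leiomyosarcoma lay above muscle by 3.19 ± 0.42 (adjusted p = 8.33e-05).

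**Figure D5:**
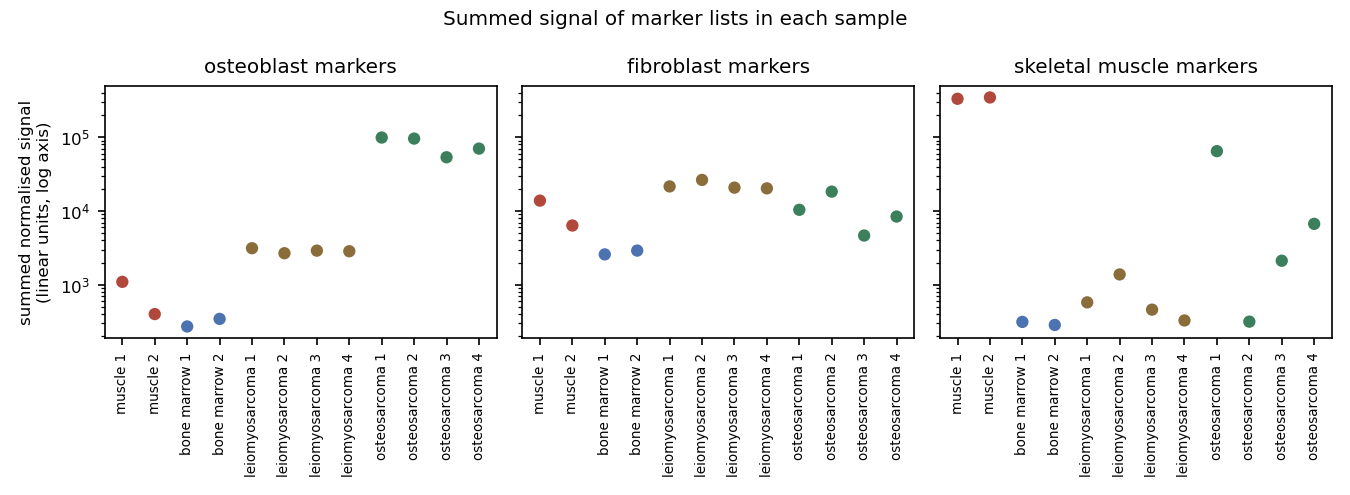
Summed normalised signal (linear units, log axis) of the osteoblast, fibroblast and skeletal muscle marker lists in each of the 12 samples, coloured by tissue. Osteoblast markers stand at 53619 or more in the 4 osteosarcomas and at 3139 or less elsewhere, and osteosarcoma 1 holds far more skeletal muscle signal than the other 7 tumours.

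Summed marker signals of several cell types also differed between the tissues. Their association with the values of the Wnt genes was not tested. The summed osteoblast signal was 99214, 96040, 53619 and 70256 in osteosarcomas 1 to 4, where Wif1 was 514, 571, 199 and 120, against 2685 to 3139 in leiomyosarcoma, 402 to 1099 in muscle and 273 to 346 in bone marrow. Of the 8 osteoblast markers, Sp7, Bglap and Phex were undetected in the other tissues. Ibsp and Alpl were each detected on some arrays of muscle, bone marrow and leiomyosarcoma, whose samples held 1 to 3 of the 8. The fibroblast sum was 20313 to 26441 in leiomyosarcoma, 4666 to 18352 in osteosarcoma, 6378 to 13854 in muscle and 2589 to 2915 in bone marrow, where Pdgfra, Lum, Col3a1, Postn and Dpt were undetected. Osteoclast markers summed to 4265 to 50002 in osteosarcoma, 1615 to 2604 in leiomyosarcoma, 260 to 425 in muscle and 208 to 246 in bone marrow. The probes summed for Calcr and Atp6v0d2 were undetected in all 4 tissues, though another Calcr probe passed the detection filter. Macrophage markers summed to 13805 to 18891 in leiomyosarcoma and 4864 to 10549 in osteosarcoma, against 1044 to 3265 in muscle and 938 to 1229 in bone marrow. Endothelial markers summed to 2514 to 4593 in leiomyosarcoma, 2051 to 5529 in osteosarcoma and 2351 to 2658 in muscle, against 481 to 509 in bone marrow. The part of these lists in the Wif1, Dkk3, Sfrp1, Sfrp2 and Ccn4 differences was not tested. Osteosarcoma 1 held 64880 of summed skeletal muscle signal, against 318 to 6712 in the other osteosarcomas and 332415 to 346533 in muscle. Without it Wif1 exceeded leiomyosarcoma by 2.82 (adjusted p = 0.00139) and Ccn4 by 1.51 (adjusted p = 0.00211).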

How the data were processed

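Per the labels, total RNA from fresh-frozen tissue was extracted with Trizol, and the Ambion MessageAmp kit gave biotin-labelled cRNA for one-colour Illumina arrays. Per the file headers, the intensity deposited by the authors is an average signal per probe with 1 background constant per array subtracted and no normalisation between arrays, beside a detection p-value; a second deposited table holds the unsubtracted intensity. How the p-value was computed, the scanner software and the array's build are not given in the sources used here. The neqc function (limma 3.58.1 under R 4.3.3) corrected background, added an offset of 16, quantile-normalised and gave log2 values. Background was inferred from the detection p-values. Probes detected on at least 2 arrays were kept, and a gene was its probe of the highest mean (11754 genes). Limma fitted 4 group means to the 12 arrays, with 8 degrees of freedom from the residuals and 3.634 from the prior, and two-sided tests were adjusted by Benjamini and Hochberg. A gene was called at an adjusted p under 0.05 and at least 1 log2. Where the lower group was undetected, "at least N-fold" is given. Named genes are all 9 genes, up to 4 called genes per pathway list and comparison, and each tested gene's 3 nearest genes. The 9 genes, the lists, tests and alternatives were chosen with earlier results of these data known. Steps were tested on simulated data with 200 genes set to change by 2 log2. The share recovered was lowest for bone marrow against muscle (62%) and highest for osteosarcoma against leiomyosarcoma (89%). For leiomyosarcoma against muscle it was 79%, so a difference not called can still be present. The reference gene table matched 34807 of 34885 probes with 1 symbol. The number of arrays limits the precision. Figures used matplotlib 3.10.9.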

Additional observations from a re-analysis of the deposited data

Results flagged for a closer look

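For each of 8 genes the highest or lowest sample of each tumour was set against the other 3 of its group by Dixon's test, 16 groups in all, of which chance marks about 1 in 20. Axin2 in leiomyosarcoma 3, at 5.64, lay under the other leiomyosarcomas, which were between 6.31 and 6.43. Lef1 in leiomyosarcoma 2, at 5.13, lay above the others, at 4.82 to 4.84, although none of the 4 was detected.

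The difference of differences, osteosarcoma minus bone marrow less leiomyosarcoma minus muscle, passed the limma test for Wif1 (3.70, adjusted p = 0.000567), Ccn4 (2.50, adjusted p = 0.000134) and Sfrp1 (3.17, adjusted p = 0.00197). Wif1 was higher in 4 of 4 osteosarcomas than in both bone marrows, and its leiomyosarcoma difference from muscle was −0.39. For Ccn4 the differences were 6.54 and 4.04, with bone marrow 1 undetected. Wif1 was undetected in both normal tissues and Sfrp1 in bone marrow, so the sizes for these genes rest on signals not above background.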

How the results depend on the processing

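Of the values of the 6 genes that were called, 483 kept their call over the alternatives and 74 lost it; of those not called, 328 stayed so, 8 became called and 7 turned sign. Wif1 and Ccn4 kept every call that involves a tumour. The cause of a lost call was not tested. With the unsubtracted intensities fewer genes were called: 1517 higher in leiomyosarcoma against muscle, 1131 higher and 998 lower in osteosarcoma against bone marrow, 213 and 295 in osteosarcoma against leiomyosarcoma, 1390 higher in osteosarcoma against muscle, and 1153 and 942 in leiomyosarcoma against bone marrow. The background block called 1105 genes higher in osteosarcoma against bone marrow, and within the arrays of high background 202 were higher and 322 lower in osteosarcoma against leiomyosarcoma. Of the 6 genes, leiomyosarcoma against muscle called 1 higher with no filter, with the background block and within low-background arrays, and 1 lower with median scaling, which moved the median of all genes by −0.18 to −0.40 in the comparisons that include a normal tissue. Osteosarcoma against muscle called 0 lower with the unsubtracted intensities, offset 50, either block and only the compared groups in limma, where Axin2 had an unadjusted p under 0.05 (1 gene) except with the background block (0 genes). Leiomyosarcoma against bone marrow called 2 higher with the unsubtracted intensities and within low-background arrays. Bone marrow against muscle called 2 lower with median scaling or the mean over probes, 1 with offset 50 and 0 with the unsubtracted intensities in limma, where 2 had an unadjusted p under 0.05. With median scaling, leiomyosarcoma against bone marrow turned to −0.30 for Wif1 and −0.051 for Sfrp1.

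Replicate numbers here only count the samples of a tissue in listed order. Of 14 same-numbered pairs 0 correlated above 0.1 (−0.0786 to 0.0819), and 4 of 12 samples correlated best with their own number. Muscle 1 and bone marrow 2, whose titles share a code, carry unlike numbers. Neither these correlations nor a block on the numbers can therefore tell whether samples share an animal. With a replicate block the Wif1 difference of leiomyosarcoma against muscle was 0.00036, the Sfrp2 call there ended (1.90, adjusted p = 0.0544) and so did the Axin2 call in osteosarcoma against muscle (−0.92, adjusted p = 0.0916). Of 4136 genes called in leiomyosarcoma against muscle 3753 were also called with the block, and of 3273 in osteosarcoma against bone marrow 2906.

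With each array left out in turn, the number of genes called higher and lower ranged over 2092 to 2426 and 1701 to 1793 in leiomyosarcoma against muscle, 1254 to 1870 and 1242 to 1569 in osteosarcoma against bone marrow, 289 to 473 and 385 to 532 between the tumours, 1901 to 2237 and 1651 to 1732 in osteosarcoma against muscle, and 1295 to 1843 and 1202 to 1517 in leiomyosarcoma against bone marrow. Of the 6 genes, leiomyosarcoma against muscle called 1 to 3 higher and 0 to 1 lower, osteosarcoma against muscle 2 to 4 higher and 0 to 1 lower, and bone marrow against muscle 1 to 4 lower. Differences that turned sign ranged from −1.13 to 0.12 for Axin2 in leiomyosarcoma against muscle, from −0.0029 to 0.96 for Sfrp2 between the tumours and from −0.96 to 0.082 for Sfrp2 in bone marrow against muscle. Signal near background limits Wif1, Sfrp1 and Axin2 outside the tissues where they were detected.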
